A study of Mus musculus with 12 samples.

Results

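A set of 10 long noncoding RNAs was followed through copper overload in AML12 cells, an immortalized line of mouse hepatocytes. They were chosen by symbol, with earlier results of these data known. The set held Malat1 and Neat1, which stay in the nucleus, Meg3, and the snoRNA host genes Gas5, Snhg1, Snhg3, Snhg8, Snhg12, Snhg15 and Zfas1. All 10 symbols were among the 24824 genes of the deposited table, and 9 of them passed the filter on low values (a mean FPKM over all libraries of at least 1). Group A was grown in standard medium. In group B copper chloride (300 μM) was added together with elesclomol (40 nM), an ionophore that carries copper into cells, a pair written Cu/ES. Cells of group C were given that pair plus the bile acid taurocholic acid (TCA, 1000 μM), whereas in group D the 1000 μM of TCA was given alone. Exposure lasted 24 h in each treated group, and each group had 3 libraries of polyadenylated RNA. The cells were wild-type only in the sense that no gene was altered for any group. The labels do not say that the 3 libraries came from separate cultures, so the p-values measure the spread between these libraries, which may be technical.

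Small nucleolar RNAs (snoRNAs) guide the chemical modification of ribosomal RNA, and most are cut out of the introns of a host transcript. The exons of a noncoding host are then spliced together, exported and often removed by nonsense-mediated decay, a pathway tied to translation. Many hosts start, like the mRNAs of ribosomal proteins, with a 5′ terminal oligopyrimidine tract (TOP), a C followed by an unbroken run of C or T, through which translation of the transcript is controlled by growth signals. Malat1 is an abundant RNA of nuclear speckles, where splicing factors are stored. Neat1 is the scaffold of paraspeckles, nuclear bodies that form under stress, and only its short isoform is polyadenylated. The 3′ end of Malat1 and of the long Neat1 isoform is a triple helix in place of a poly(A) tail, so their levels here are what the selection of polyadenylated RNA retained. Meg3 is the maternally expressed RNA of the imprinted Dlk1-Dio3 region.

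The start of the transcript is shown for 7 of the 10 genes (both annotated starts of Gas5), since a TOP start is the sequence feature that the snoRNA hosts are known for. Each run holds 20 bases before the annotated start and 30 bases from the start on, from RefSeq on build GRCm38.p6 and written in the direction of the gene, and capitals mark the unbroken run of C or T that begins at the start.
Gas5, first start, chr1:161034581-161034630, plus strand: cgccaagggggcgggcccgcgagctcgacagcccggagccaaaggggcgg
Gas5, second start, chr1:161035146-161035195, plus strand: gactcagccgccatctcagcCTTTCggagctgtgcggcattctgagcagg
Snhg8, chr3:123508307-123508356, minus strand: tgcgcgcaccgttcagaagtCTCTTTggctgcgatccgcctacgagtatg
Snhg12, chr4:132308658-132308707, plus strand: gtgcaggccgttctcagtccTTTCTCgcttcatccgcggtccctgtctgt
Snhg1, chr19:8723467-8723516, plus strand: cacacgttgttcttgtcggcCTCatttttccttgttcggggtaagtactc
Snhg15, chr11:6528731-6528780, minus strand: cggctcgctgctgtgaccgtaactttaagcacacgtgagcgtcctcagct
Zfas1, chr2:167062914-167062963, plus strand: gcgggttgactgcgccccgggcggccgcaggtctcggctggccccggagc
Malat1, chr19:5802643-5802692, minus strand: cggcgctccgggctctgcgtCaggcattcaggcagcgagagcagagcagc

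Of the 10 genes, 9 had an entry, with 11 annotated starts between them, and Neat1 had none. A C followed by at least 4 further C or T stood at 2 of these 11 starts, the second start of Gas5 and that of Snhg8, and at 2.51% of the 32851 promoters in the table. A run of at least 5 bases of C or T, whatever its first base, stood at 3 starts, with Snhg12 as the third, and at 4.44% of all promoters. The run was 3 bases long in Snhg1, 1 base in Malat1 and absent at the first start of Gas5 and at the annotated starts of Snhg3, Snhg15, Zfas1 and Meg3. The core of the metal response element, TGCACNC or TGCGCNC on either strand, was found in the 300 bases around 4 of the 11 starts (the first start of Gas5, Snhg8, Zfas1 and the first start of Meg3) and around 25.7% of all promoters. A pair of heat shock units, GAANNTTC or TTCNNGAA, was found around 0 of the 11 starts and around 15.1% of all promoters.

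Annotation of GRCm38 (GENCODE M21) places 9 snoRNA genes inside Gas5, 8 inside Snhg1, 4 inside Snhg12, 3 inside Zfas1, 2 inside Snhg3 and 1 each inside Snhg8 and Snhg15. None lies inside Malat1, Neat1 or Meg3. The snoRNAs themselves carry no poly(A) tail, and the values below are those of the host genes. In the same annotation Snhg3 shares 135 exon bases with Rcc1 on the same strand, and Zfas1 shares 82 exon bases with Znfx1 on the opposite strand. How the authors assigned reads of such stretches, and whether strand was used, is not given in the sources used here.

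FPKM divides the fragments of a gene by its length and by the library total. Levels of different genes can therefore be compared where that length fits the RNA that was sequenced. For Neat1 the length was 20773 bases, that of the long isoform, so its level beside other genes is less certain. The spacing of the values gave back whole reads. Library totals ran from 29115011 to 39782142 reads, and each of the 9 tested RNAs rested on 348 to 21029 reads per library. Reads of the 10 genes together made up 0.0826% to 0.116% of a library in groups A and D and 0.125% to 0.177% in groups B and C. Of the hepatocyte markers, Alb, Apob and Hnf4a were at most 0.0758 FPKM in any library, Apoa1 was at most 0.0259 in groups A and D but 1.18 to 2.44 in group B, and the keratins Krt8 and Krt18 ran from 54.6 to 401, lower in groups B and C. Of the bile duct markers, Krt19 was at 223 to 313 FPKM in group A and 64.1 to 88.7 in group B, while Sox9 was at 7.44 to 12.3 and 47.1 to 54.3. Of the macrophage markers none reached 1 FPKM, and their sum stayed at or below 0.572. The endothelial markers summed to 0.922 to 1.16 FPKM in group A, against 6.79 to 10.5 in group B, while group C had 16.5 to 19.7, with Pecam1 as the largest part in groups B and C and Cdh5 in group A. The stellate cell and fibroblast markers summed to 20.6 to 37.6 FPKM in group A, against 1.63 to 3.25 in group B, while group C had 0.856 to 1.59. The part of these markers in the results below was not tested.

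**Figure D1:**
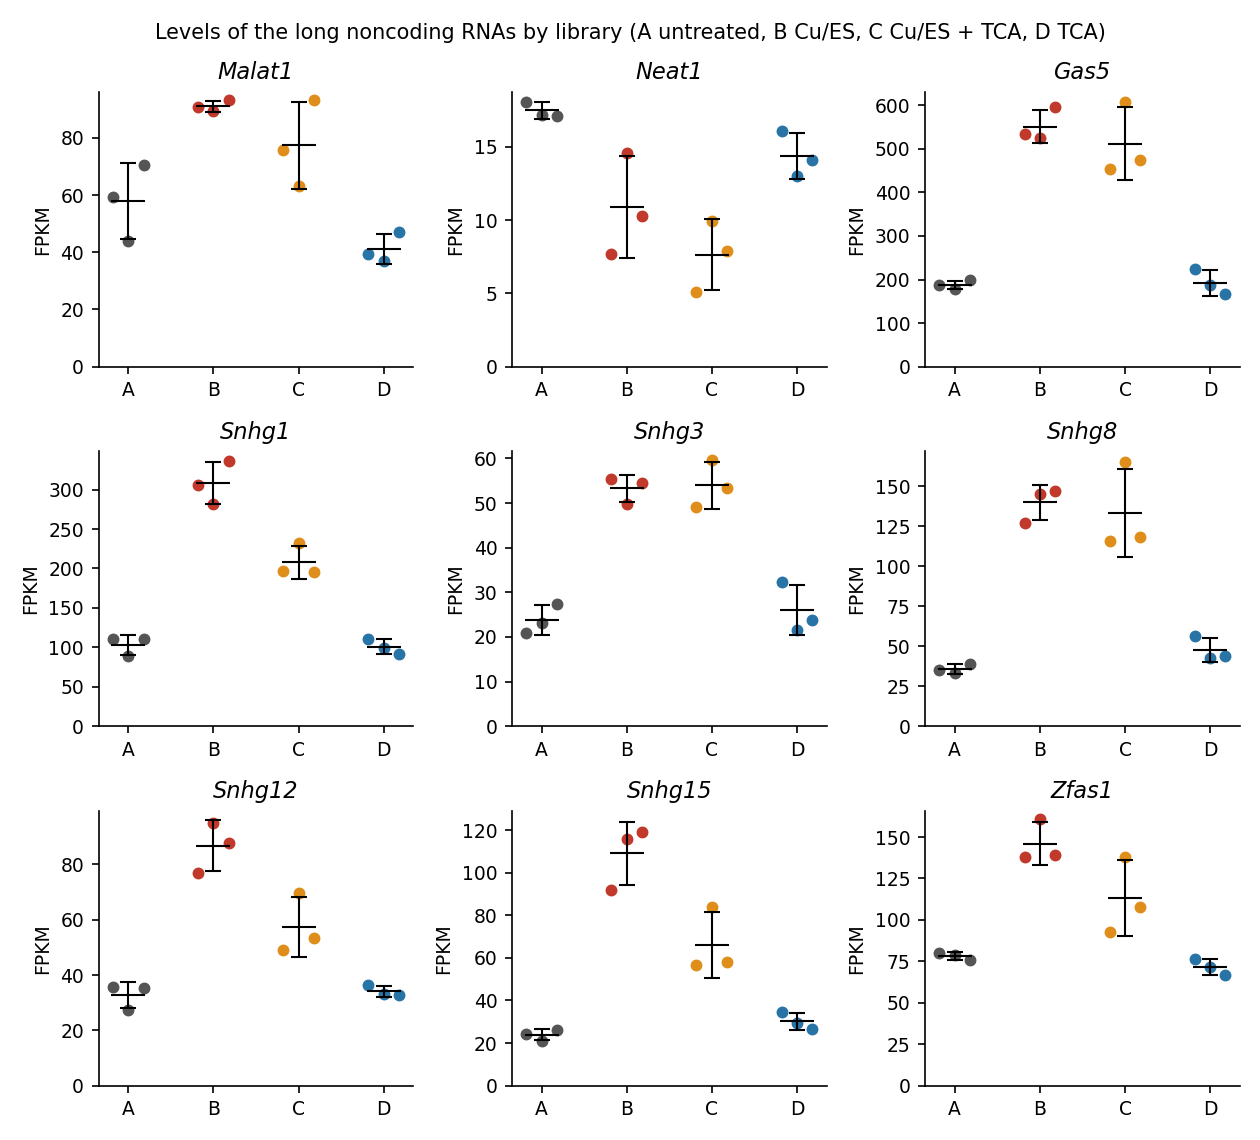
FPKM (linear axis from 0) of the 9 tested RNAs in each library, with 1 panel per gene. Points are libraries, horizontal bars are group means and whiskers are 1 SD (n = 3). In the 7 snoRNA hosts and Malat1 the points of group B lie above those of group A, whereas in Neat1 they lie below.

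The first comparison asked what Cu/ES did to these RNAs. In group B vs. A, the snoRNA hosts rose by 1.87 to 4.56 times in mean FPKM, Malat1 rose by 1.57 times and Neat1 fell to 0.623 of its level. Together the 7 hosts summed to 486 ± 31.2 FPKM (mean ± SD, n = 3) in untreated cells and 1394 ± 76.1 with Cu/ES. With limma on log2(FPKM + 1), fitted on 10615 genes with Benjamini-Hochberg adjustment, 6 of the 9 tested RNAs were higher past both thresholds (an adjusted p below 0.05 and a log2 difference above 1 in size), against 10.1% of all tested genes. These were Gas5, Snhg1, Snhg3, Snhg8, Snhg12 and Snhg15. At the adjusted p alone, 8 were higher (20.1% of all genes) and 1, Neat1, was lower (72.0% of all genes). The median tested gene lay 1.10 lower in group B on the same log2 scale, and each of the 9 RNAs lay above it. With median-ratio scaling, 26.0% of all genes were higher and 25.6% were lower past both thresholds, and 8 of the 9 RNAs were higher.

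Snhg15, the host of Snora9, had the largest difference of the 9. Its FPKM values were 24.2, 21.1 and 26.3 in group A, against 91.7, 116 and 119 in group B. The lowest library of group B was over 3 times the highest of group A. The log2 difference was 2.14 (SE 0.15, limma adjusted p = 3.70e-09), 3.24 above the median gene.

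Snhg8, which carries Snora24, followed. It measured 34.8, 33.1 and 39.1 FPKM in group A, against 127, 145 and 147 in group B, without overlap. This was a log2 difference of 1.94 (95% confidence interval 1.66 to 2.23, adjusted p = 3.05e-09).

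Gas5, named for growth arrest, was the most abundant of the hosts in every group. Group A held 188, 179 and 198 FPKM, and group B held 534, 525 and 595. The difference of 1.54 on the log2 scale had a confidence interval of 1.29 to 1.79 (limma adjusted p = 8.88e-09). Snhg1, the next in abundance and the gene with 8 snoRNAs, gave 110, 88.7 and 110 FPKM in group A against 306, 282 and 336 in group B. Its log2 difference was 1.58 (adjusted p = 1.83e-09), so that Gas5 and Snhg1 changed by nearly the same factor from levels that differed.

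Snhg12 lay at 35.7, 27.3 and 35.3 FPKM in group A, against 76.9, 95.1 and 87.9 in group B, a log2 difference of 1.38 (adjusted p = 1.01e-07). Snhg3, which holds Snora73a and Snora73b, lay at 20.8, 23.2 and 27.3 FPKM in group A, against 55.4, 49.8 and 54.6 in group B, a log2 difference of 1.14 (adjusted p = 1.12e-06). In neither gene did the groups overlap. Rcc1, whose exons share bases with Snhg3, measured 25.8 ± 1.80 FPKM in group A and 29.0 ± 0.384 in group B, a log2 difference of 0.17. Rcc1 therefore moved far less than Snhg3, though its direction was lower under TPM (-0.20).

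Zfas1, the host of Snord12, had the smallest rise among the hosts and stayed under the fold threshold. Its values were 80.1, 78.6 and 75.9 FPKM in group A, against 138, 161 and 139 in group B. The log2 difference was 0.89 (adjusted p = 3.53e-06). Znfx1 on the opposite strand was lower on the FPKM scale, from 4.93 ± 0.680 to 1.12 ± 0.190 FPKM. Its log2 difference was -1.48, with the median gene at -1.10. Median-ratio scaling put Znfx1 at -0.59 and quantile normalization at -0.09 (limma adjusted p = 0.536).

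Malat1 had a smaller difference than any host. Group A held 59.5, 43.8 and 70.5 FPKM and group B held 90.9, 89.4 and 93.1, which places every library of group B above every library of group A. Its log2 difference was 0.67 (confidence interval 0.33 to 1.01, limma adjusted p = 0.00105). The libraries of group A were spread more widely (SD 13.4) than those of group B (SD 1.88). Under TPM the difference was 0.31 and the call was lost (adjusted p = 0.0975).

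Neat1 was the single RNA of the 9 with a lower FPKM. It lay at 18.1, 17.2 and 17.1 FPKM in group A, against 7.70, 14.6 and 10.3 in group B. All values of group B were lower, although library B2 stood close to group A. The log2 difference was -0.68 (confidence interval -1.12 to -0.24, adjusted p = 0.00618), a smaller fall than that of the median gene by 0.42. The gene length behind these values was 20773 bases, that of the long isoform, and the values do not separate the isoforms.

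The direction of Neat1 rested on the scaling. FPKM is relative to the library total, and the share of reads taken by the 100 most abundant genes was 14.6% to 15.1% in groups A and D and 26.8% to 30.5% in groups B and C, and the part of this shift in the results was not tested. Scaling by the median ratio over genes put the median gene at -0.03, Neat1 at 0.52 (adjusted p = 0.0434) and every host above 2. Quantile normalization put Neat1 at 0.32 (adjusted p = 0.136). Snhg15, Snhg8, Snhg1 and Snhg12 stayed past both thresholds under all 4 scalings, whereas Gas5 fell to 0.92 with quantile normalization and Snhg3 fell to 0.79 with TPM. Bulk libraries without a spiked-in standard cannot tell fewer cells from less RNA per cell, so each difference is relative to the other RNA of the library.

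**Figure D2:**
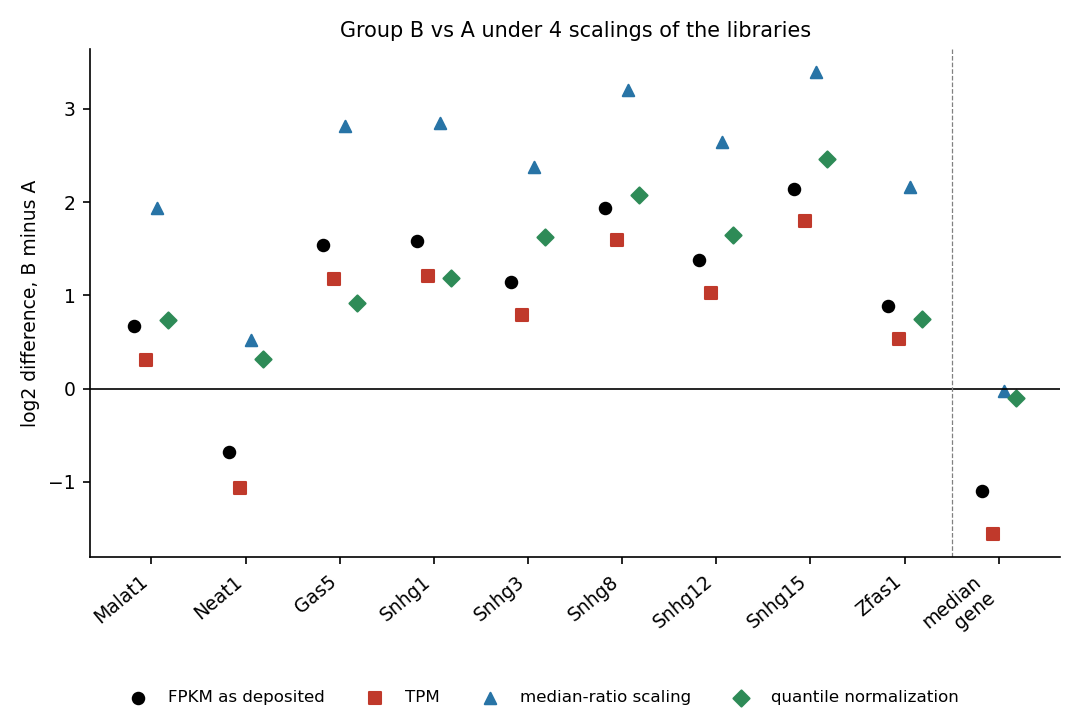
Log2 difference of group B minus A (vertical axis) for the 9 tested RNAs and for the median of all tested genes, under FPKM as deposited, TPM, median-ratio scaling and quantile normalization. The host genes and Malat1 lie above 0 under each scaling, Neat1 lies at -0.68, -1.06, 0.52 and 0.32, and the median gene moves from -1.56 with TPM to -0.03 with median-ratio scaling.

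Ratios inside a library do not depend on a factor that scales the whole library. Neat1 to Malat1 was 0.305, 0.393 and 0.243 in group A, against 0.0847, 0.164 and 0.111 in group B. Every ratio of group B was lower than every ratio of group A. Gas5 to Malat1 went the other way, from 3.35 ± 0.661 to 6.05 ± 0.297 (mean ± SD, n = 3). Zfas1 to Gas5 was 0.416 ± 0.0290 in group A, against 0.266 ± 0.0370 in group B, so the hosts did not all change by 1 factor. These ratios were chosen after the values were seen and are given without a test.

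The same treatment was compared in the presence of TCA as group C vs. D, 6 libraries of which none enters group B vs. A. In it, 5 of the 9 tested RNAs were higher past both thresholds (11.2% of all genes): Gas5, Snhg1, Snhg3, Snhg8 and Snhg15. The adjusted p was passed by 8 that were higher (20.9% of all genes) and by Neat1, which was lower (71.5% of all genes). Snhg3 and Snhg1 lay barely past the fold threshold, each at 1.04, and the count was 3 without library D3, 3 with TPM (Gas5 and Snhg8 higher, Neat1 lower) and 8 higher with median-ratio scaling. Of all genes, 9.28% were higher and 61.8% lower with TPM, and 25.9% were higher with median-ratio scaling.

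Snhg8 measured 116, 165 and 118 FPKM in group C and 56.2, 42.5 and 43.8 in group D. This was the largest log2 difference of the comparison, 1.46 (limma adjusted p = 8.04e-08). Gas5 measured 454, 608 and 475 FPKM against 224, 187 and 166, a log2 difference of 1.41 (adjusted p = 2.48e-08). Snhg1 gave 197, 232 and 195 FPKM in group C and 111, 99.3 and 91.8 in group D (log2 difference 1.04). In these 3 genes the groups stood apart, as they did in every other tested RNA. The share of all genes without overlap was not counted, so this separation is a description only.

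Snhg15, first in group B vs. A, gave 56.6, 84.0 and 57.9 FPKM in group C against 34.6, 29.2 and 26.7 in group D, a log2 difference of 1.09. For Snhg12 the values were 49.1, 69.5 and 53.4 against 36.4, 33.2 and 32.7, a log2 difference of 0.72. Zfas1 had 92.7, 138 and 108 against 76.7, 71.7 and 66.7, a log2 difference of 0.63. Both passed the adjusted p without reaching the fold threshold.

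Snhg3 lay at 49.1, 59.6 and 53.4 FPKM in group C and at 32.4, 21.6 and 23.9 in group D. Malat1 lay at 75.7, 63.1 and 93.2 in group C and at 39.4, 37.1 and 47.1 in group D, and its log2 difference was 0.88 (adjusted p = 9.79e-05). Neat1 lay at 5.11, 9.94 and 7.91 in group C and at 16.1, 13.0 and 14.1 in group D, a log2 difference of -0.87 (limma adjusted p = 0.00105). With median-ratio scaling Neat1 was at 0.28 and with quantile normalization at 0.24, neither past the adjusted p. The ratio of Neat1 to Malat1 was 0.103 ± 0.0478 in group C and 0.353 ± 0.0548 in group D, a gap of the same direction as between groups B and A. Gas5 to Malat1 was 6.91 ± 2.40 in group C and 4.75 ± 1.11 in group D, and here the libraries of the groups overlapped.

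**Figure D3:**
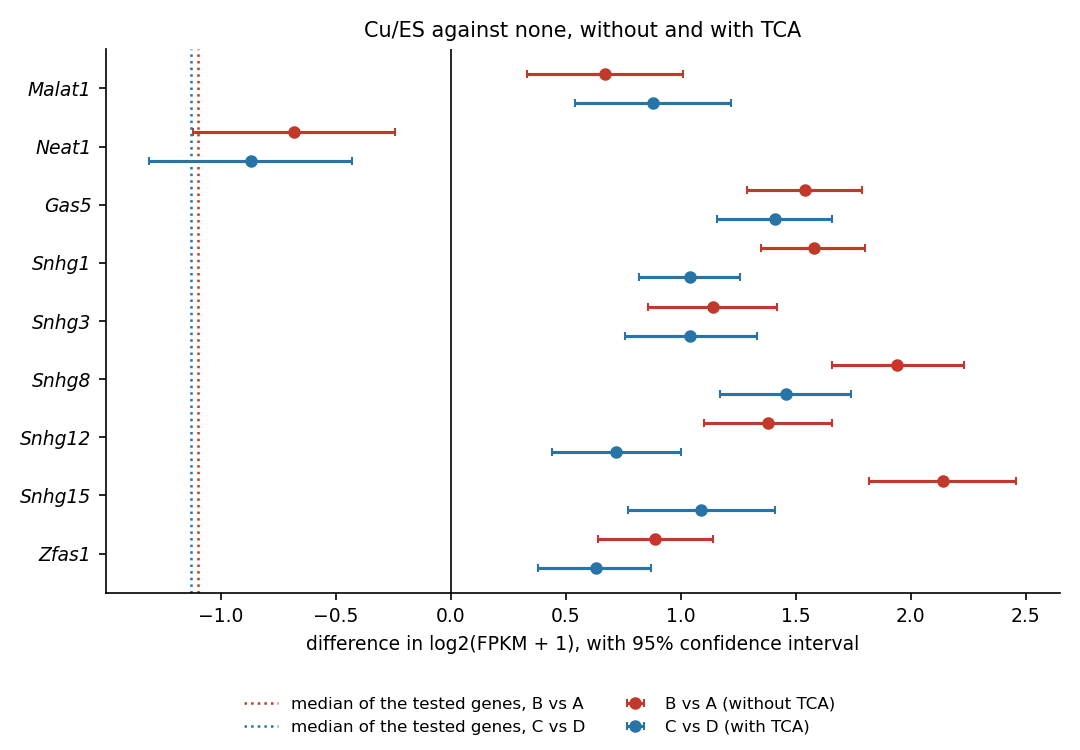
Differences in log2(FPKM + 1) with 95% confidence intervals from limma for the 9 tested RNAs in group B vs. A (red) and group C vs. D (blue). Dotted lines mark the median of all tested genes, -1.10 and -1.13. The intervals of the 7 hosts and Malat1 lie above 0 in both comparisons, and those of Neat1 lie below 0.

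Each RNA was also compared between the 6 libraries with Cu/ES and the 6 without, by an exact permutation test within the level of TCA (two-sided, 400 arrangements). For all 9 tested RNAs the p was 0.005, the smallest that the design allows, and 0.00582 after Benjamini-Hochberg adjustment over the 10615 genes. The adjusted p stays this close to 0.005 because most of the 10615 genes reached the same limit. Reaching it therefore does not set these RNAs apart, and the size and the sign carry the information. The mean log2 difference ran from 0.76 for Zfas1 to 1.70 for Snhg8 among the hosts, was 0.78 for Malat1 and -0.77 for Neat1. TCA against none was compared by the same test within the level of Cu/ES, which averages over both levels. No RNA of the 9 passed the adjusted p there. It was lowest for Zfas1 (0.0866), and 0.158 for Snhg1, 0.243 for Snhg12 and 0.509 for Snhg15.

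The second question was whether TCA altered the response to Cu/ES. In group C vs. B, 4 of the 9 tested RNAs were lower at the adjusted p (23.6% of all genes): Snhg15, Snhg12, Snhg1 and Zfas1. Snhg15 went from 109 ± 14.8 FPKM in group B to 66.2 ± 15.5 in group C, and its libraries did not overlap (log2 difference -0.72, limma adjusted p = 0.00148). Snhg12 went from 86.7 ± 9.16 to 57.3 ± 10.8 FPKM (-0.60, adjusted p = 0.00195), and Snhg1 from 308 ± 26.7 to 208 ± 21.0 (-0.56, adjusted p = 6.32e-04). In all 3, every library of group C stayed above every library of group A.

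Zfas1 differed less, by -0.39 (adjusted p = 0.0140), with the lowest library of group B at 138 FPKM and the highest of group C at 138 when rounded. Its call was lost without library B2 (-0.32, adjusted p = 0.0637) and without library C1 (-0.26, adjusted p = 0.0670), as well as with no filter on low values and in a fit of groups B and C alone. The other hosts did not pass. The confidence interval was -0.27 to 0.30 for Snhg3, -0.38 to 0.20 for Snhg8 and -0.37 to 0.13 for Gas5, so differences of up to 0.38 on the log2 scale lie within them. Malat1 differed by -0.25 (interval -0.59 to 0.09) and Neat1 by -0.46 (interval -0.90 to -0.02, adjusted p = 0.0855). Neat1 passed without library B1 (-0.66, limma adjusted p = 0.0190) and without library C2 (-0.65, adjusted p = 0.0175).

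Within group C the hosts shared their highest library. All 7 had their highest value in library C2, which was also highest for Neat1, while Malat1 was highest in C3. Library C2 held 34912748 reads, C1 held 29115011 and C3 held 32298068. The 100 most abundant genes took 30.3% of the reads of C2, against 26.8% in C1 and 26.8% in C3. The part of this in the host values was not tested. The sum of the hosts was 1014 FPKM in the lowest library of group C and 1356 in the highest, against 1330 to 1478 in group B.

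The third question was what TCA did without Cu/ES. In group D vs. A, 1 of the 9 tested RNAs, Snhg8, passed the adjusted p (higher, against 10.5% of all genes). Its mean was 35.6 ± 3.13 FPKM in group A and 47.5 ± 7.56 in group D, a log2 difference of 0.40 (limma adjusted p = 0.0480). This call was lost in 11 of 16 alternatives, among them the omission of each library of groups A and D except D2 (0.27 to 0.46, limma adjusted p = 0.0552 to 0.201). Malat1 was 57.9 ± 13.4 FPKM in group A and 41.2 ± 5.24 in group D, just short of the threshold (log2 difference -0.46, adjusted p = 0.0510) and past it in 5 of 16 alternatives, among them the replicate block and the omission of library A2 (-0.65, adjusted p = 0.00835). For the remaining 7 the adjusted p ran from 0.136 to 0.934. Gas5 and Snhg1 were close to 0, with confidence intervals of -0.23 to 0.27 and -0.25 to 0.19.

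Finally, the effect of TCA in the presence of Cu/ES was set against its effect in the absence of Cu/ES, (C - B) - (D - A), which uses all 12 libraries. Of the 9 tested RNAs, 3 passed the adjusted p, all lower (19.8% of all genes). They were Snhg15 at -1.05 (confidence interval -1.50 to -0.59, limma adjusted p = 0.00195), Snhg12 at -0.66 (-1.06 to -0.27, adjusted p = 0.0118) and Snhg1 at -0.54 (-0.85 to -0.22, adjusted p = 0.0115). The call of Snhg1 was lost with quantile normalization (-0.34, adjusted p = 0.107) and that of Snhg12 with no filter on low values (adjusted p = 0.0512). Snhg15 measured 0.33 more in group D than in group A, short of the threshold (adjusted p = 0.136), and 0.72 less in group C than in group B. The ratio of Snhg15 to Gas5 was 0.126 ± 0.00797 in untreated cells, 0.197 ± 0.0249 with Cu/ES, 0.128 ± 0.00877 with Cu/ES and TCA, and 0.157 ± 0.00363 with TCA alone. This ratio too was chosen after the values were seen and is given without a test. Snhg8 missed the threshold with -0.49 (adjusted p = 0.0581), and Gas5 and Snhg3 gave -0.14 and -0.09.

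**Figure D4:**
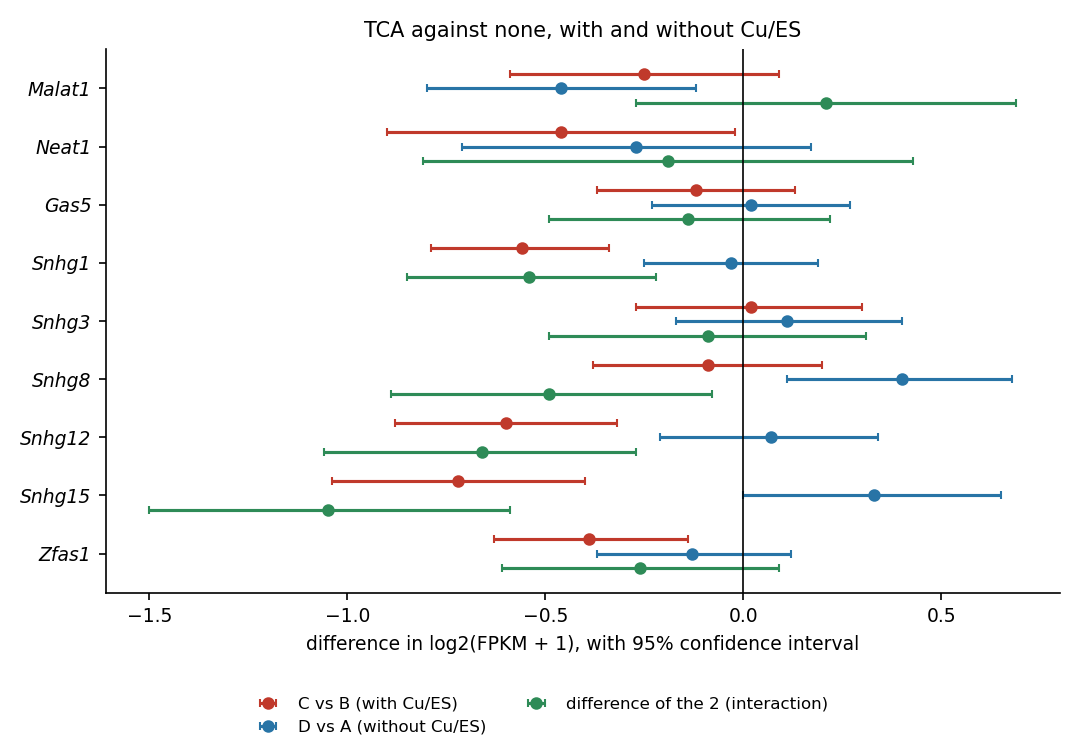
Differences in log2(FPKM + 1) with 95% confidence intervals for the 9 tested RNAs in group C vs. B (red), in group D vs. A (blue) and for the difference between these comparisons (green). Snhg15, Snhg12 and Snhg1 have intervals below 0 in red and in green, with Snhg15 at -0.72 and -1.05.

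Over the 4 groups the tested hosts were thus ordered in mean FPKM as B, C, D and A (Gas5, Snhg8, Snhg12 and Snhg15), as B, C, A and D (Snhg1 and Zfas1) or as C, B, D and A (Snhg3). Neighbours in these orders overlapped between A and D in every host except Snhg8 and Snhg15, and between B and C in Gas5, Snhg3 and Snhg8. How many of all genes overlapped in the same way was not counted, so these overlaps are a description only. For Malat1 the order was B, C, A and D and for Neat1 it was A, D, B and C.

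The genes nearest to 3 of these RNAs were found as the mean absolute difference in log2(FPKM + 1) over the 12 libraries after centring each gene on group A. For Gas5 they were Rplp2 and Rps12, proteins of the ribosome, at 0.05 each and Psma2, a proteasome subunit, at 0.06. Rps12 is itself a snoRNA host and went from 338 FPKM in group A to 955 in group B. Among the other RNAs described here, Gas5 was nearest to Snhg1 (0.15), and Snhg1 was as near to Snhg12 (0.15). Snhg8 was nearest to Snhg15 (0.19). For Malat1 the nearest were Sf3b1, a core splicing factor, Aim2 and Ccnt2 at 0.13 to 0.15, and Sf3b1 went from 68.2 to 112 FPKM between groups A and B. For Neat1 they were Slc22a18, Oard1 and Zfp318 at 0.12 to 0.14.

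Meg3 was barely detected. It was at 0 in 10 of the 12 libraries, and the other two held 2 reads (C1, 0.00530 FPKM) and 1 read (C2, 0.00221 FPKM). A count of 0 allows up to 3 reads, or 0.00582 to 0.00795 FPKM, in a library, so no difference was detectable at this depth. Its neighbours in the imprinted region stayed below the filter as well: Dlk1, Rtl1, Rian and Mirg did not exceed 0.488 FPKM in any library.

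Related genes were counted in group B vs. A by lists, beside 10.1% of all genes higher and 53.0% lower past both thresholds and a median of -1.10. Of 10 other noncoding snoRNA hosts that were tested, 2 were higher and 1 was lower, with a median of 0.26. Snhg9 rose from 1.09 ± 0.723 to 29.0 ± 7.25 FPKM (log2 difference 3.87) and Dancr by 1.92, whereas Snhg17 fell by 1.42. With median-ratio scaling 6 of these hosts were higher and 0 lower, with Snhg17 at -0.31, and with TPM 2 were higher and 4 lower. Of 23 protein-coding hosts, mostly ribosomal protein and translation factor genes, 9 were higher and 1 was lower (median 0.87). Hspa8, a constitutive chaperone of the heat shock family, led with 3.41, followed by Rps12 (1.49) and Rpl13a (1.31), and Eif4a2 fell by 1.89. With TPM 2 of these hosts were higher and 1 lower (7.98% and 63.3% of all genes), with median-ratio scaling 20 and 0 (26.0% and 25.6%), and with quantile normalization 2 and 3 (20.7% and 22.2%). The same shares of all genes hold for the counts of the other lists under these scalings.

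Of 18 proteins that bind or assemble snoRNAs, 4 were higher and 3 were lower (median -0.30). The box C/D core protein Nop58 rose by 1.95, Snu13 by 1.32, and the box H/ACA protein Nhp2 by 1.56, while Dkc1, the pseudouridine synthase of the same H/ACA particle, fell by 1.33 and Nop10 fell by 1.28. Rpap3, an assembly factor, fell by 1.02. With median-ratio scaling the list had 8 higher and 0 lower, with Rpap3 at 0.14 and Dkc1 at -0.19. Snhg1, Snhg8 and the other hosts thus rose beside snoRNP genes that went in both directions on the FPKM scale.

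Among 12 paraspeckle proteins, the partners of Neat1, Ewsr1 was higher (1.66) and Dazap1 was lower (-1.29), with a median of 0.06. Under median-ratio scaling 9 were higher and 0 lower. Of 14 factors of nonsense-mediated decay, which degrades many spliced hosts, 3 were higher and 4 were lower (median 0.20). Magoh (2.48) and Eif4a3 (1.77) of the exon junction complex and the helicase Upf1 (1.59) rose, and Upf3a (-2.26), Smg8 (-2.11) and Upf3b (-1.60) fell, a split that became 8 higher and 2 lower with median-ratio scaling and 6 and 0 with quantile normalization. Of 11 other long noncoding RNAs, 2 were higher and 4 were lower (median 0.07). Norad, a cytoplasmic RNA that binds Pumilio proteins, rose from 39.4 ± 1.69 to 176 ± 13.3 FPKM (log2 difference 2.13) and Tug1 by 1.01, whereas Firre (-2.87), Oip5os1 (-2.53) and Mir22hg (-1.66) fell. Median-ratio scaling gave 6 higher and 2 lower in this list, and TPM gave 1 and 5. Firre and Oip5os1 were lower, and Norad higher, under each of the 4 scalings.

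**Figure D5:**
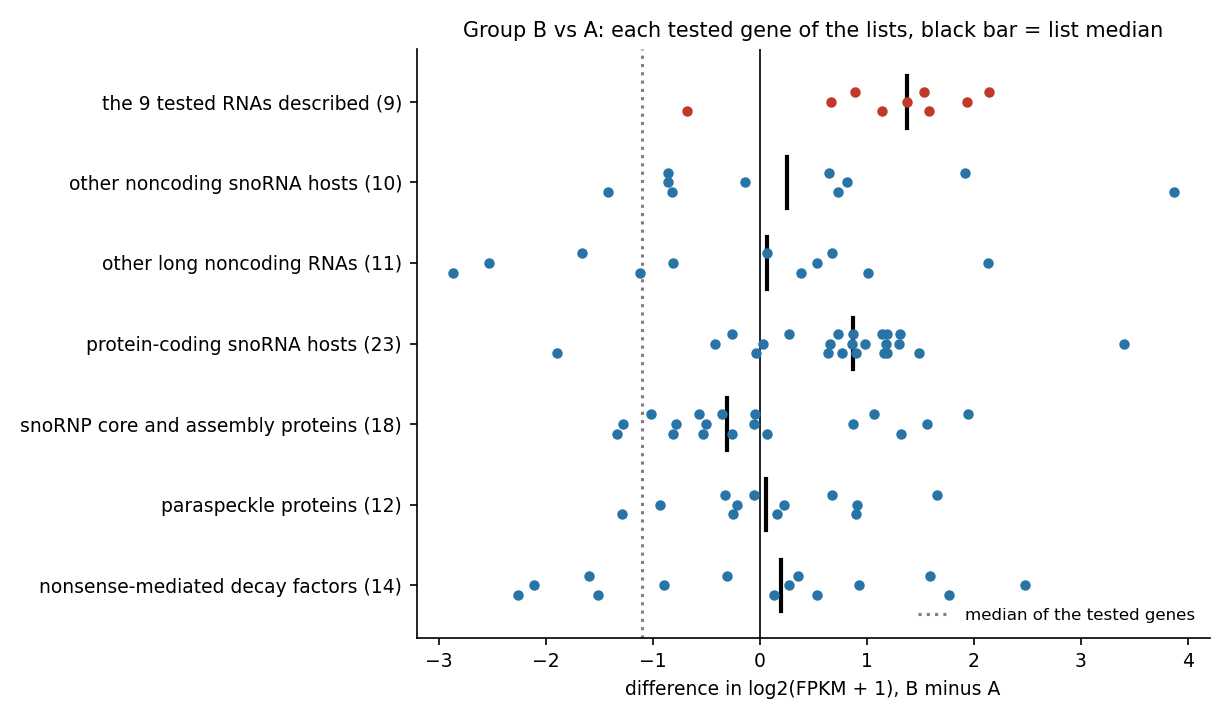
Differences in log2(FPKM + 1) of group B minus A for each tested gene of the lists (points, number of genes in parentheses), with the median of each list as a black bar and the median of all tested genes as a dotted line at -1.10. The 9 RNAs described here have a median of 1.38, against 0.26 for other noncoding snoRNA hosts and 0.07 for other long noncoding RNAs. The RNAs and the lists were chosen with earlier results of these data known, so the gap between these medians is not a test.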

How the data were processed

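The authors deposited FPKM values for 24824 genes, with 1 column for each of the 12 libraries and replicates kept apart. Poly(A) RNA was sequenced on an Illumina NovaSeq. The submitters' processing notes name fastp, HISAT2, HTSeq and build GRCm39, and versions, the annotation and the strand setting are not given in the sources used here. Coordinates are therefore printed only for RefSeq and GENCODE entries of GRCm38.

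Groups came from the sample labels. A gene was tested when its FPKM averaged 1 or more over the libraries, which left 10615 genes, and values entered as log2(FPKM + 1). Limma 3.58.1 (R 4.3.3) fitted the 12 libraries at once, with a mean for each of the 4 groups, a mean-variance trend and 8 residual degrees of freedom. P-values were two-sided, adjusted by the Benjamini-Hochberg method over all tested genes. Thresholds were 0.05 for the adjusted p and 1 for the size of the log2 difference. Exact permutation tests were run in numpy 2.4.6 (Python 3.11.15), and plots were drawn with matplotlib 3.10.9.

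Reads were recovered from the FPKM steps: 22210 of 22212 genes above 0 in at least 2 libraries gave whole reads everywhere, within 0.01 of a read. They cover counting error only, with library totals of 29115011 to 39782142.

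Replicate numbers in the labels were checked as pairs. Deviations of same-numbered libraries correlated with r of 0.142 to 0.174 between groups A and B, and in no other comparison was every r over 0.1. Over all groups the 18 same-numbered pairs ran from -0.171 to 0.579 (A2 and D2), and 11 of them had r over 0.1. Libraries of different numbers ran from -0.51 to 0.367 (A3 and D1). The labels state no pairing, so pairing was not established. The main fit had no block for the replicate number, which was an alternative. Alternatives were another pseudocount, other filters, TPM, median-ratio and quantile scaling, no trend, the compared groups alone, limma-voom on recovered reads, the block, and each library left out. The steps were tested on simulated data. For limma, 200 of 10860 genes were changed by a factor of 4, and 96.5% of them were recovered with 0 false calls. The simulated data held no shift of the median gene like that between groups B and A. The 10 RNAs and the gene lists were chosen with earlier results of these data known. Named from each list were up to 3 rises and 3 falls past both thresholds in group B vs. A without overlap, and the 3 genes nearest to Malat1, Neat1 and Gas5.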

Additional observations from a re-analysis of the deposited data

Results flagged for a closer look

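For 3 of the 9 tested RNAs the effect of TCA differed with Cu/ES, tested by the interaction term of the limma fit on all genes with Benjamini-Hochberg adjustment. All 3 were lower, as were 19.8% of all tested genes. The difference was -1.05 on the log2 scale for Snhg15 (adjusted p = 0.00195), -0.66 for Snhg12 (adjusted p = 0.0118) and -0.54 for Snhg1 (adjusted p = 0.0115). Snhg15 kept its call in 21 of 21 alternatives, and Snhg12 and Snhg1 in 20 of 21 each. Groups of 3 libraries were not searched for outlying samples.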

How the results depend on the processing

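The scaling of the libraries had the widest effect. Neat1 turned from -0.68 to 0.52 with median-ratio scaling and to 0.32 with quantile normalization in group B vs. A, and from -0.87 to 0.28 and 0.24 in group C vs. D, since these scalings move the median gene close to 0. In group C vs. D the count of RNAs past both thresholds went from 5 to 3 with TPM and to 8 with median-ratio scaling, and from 3 to 5 with a library left out. For the interaction the count went from 1 to 0 with TPM and with quantile normalization, and from 0 to 1 with a library left out, because Snhg15 lies close to the fold threshold. In group B vs. A it was 6 whichever library was left out and 5 to 8 over the other alternatives. With a replicate block in the fit, 6 RNAs passed both thresholds in group B vs. A and 5 in group C vs. D. The block changed the call of Malat1 (adjusted p = 0.00590) and of Snhg8 (adjusted p = 0.0602) in group D vs. A and no other call of the 9 RNAs. Depth was no limit for the 9 tested RNAs, with at least 348 reads each, whereas Meg3 had at most 2. With 3 libraries per group the exact permutation test of a single comparison cannot go below 0.1.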

Other observations

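Some related RNAs stood out beyond the 10 described. Snhg16, a noncoding snoRNA host outside that set and named after its values were seen, differed by 0.65 on the log2 scale in group B vs. A and by -1.05 in group C vs. B. Norad differed between groups C and B by 0.21 (limma adjusted p = 0.0321), with 204 ± 8.92 FPKM in group C and 176 ± 13.3 in group B. Upf1, the helicase of nonsense-mediated decay, was at 12.2 ± 0.730 FPKM in untreated cells, 38.8 ± 0.423 with Cu/ES, 60.1 ± 2.56 with Cu/ES and TCA, and 16.8 ± 0.289 with TCA alone. Rcc1, next to Snhg3, was at 44.1 ± 4.02 FPKM in group D and 25.8 ± 1.80 in group A, a log2 difference of 0.75 (limma adjusted p = 5.86e-05), while Snhg3 gave 0.11 (adjusted p = 0.592).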
